A study of Saccharomyces cerevisiae with 18 samples.

Results

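The proteasome subunit genes and *RPN4* were followed across 6 yeast strains that differ in base excision repair. The 35 genes were taken by name, with no threshold on their values. They are the 7 alpha ring and 7 beta ring subunits of the 20S core and the 6 ATPases and 4 other subunits of the 19S base. The others are 8 subunits of the 19S lid, the core maturation factor *UMP1*, the alternative activator *BLM10* and the transcription factor *RPN4*. All 35 were found, as 41 of the 6504 probe sets that carry 1 gene name and stand for 5656 genes. *PRE3* had 3 probe sets, *RPT5* 4 and *BLM10* 2.

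The strains were Saccharomyces cerevisiae of 1 parent, BGY111 (*MATa his3 leu2 ura3-52 trp1 can1* GAL+), and every strain carried a pYES plasmid. In WT/pMAG this was pYES-MAG, from which galactose drives *MAG*, the 3-methyladenine DNA glycosylase that removes alkylated bases and leaves abasic sites. In Δapn1, the gene of the major AP endonuclease, which cuts at abasic sites, was disrupted with *HIS3* (*apn1-1::HIS3*) and pYES was empty. Δapn1/pMAG combined that disruption with pYES-MAG. Δapn1/pAPN1 held the *APN1* plasmid pYepAPN1-2A beside the empty pYES, and Δapn1/pMAG/pAPN1 held it beside pYES-MAG. Wild type was BGY111 with the empty pYES. All were grown to mid-log phase in galactose medium without uracil, with no DNA damaging agent, as 3 biological replicates, and each RNA was hybridized to 1 Affymetrix Yeast Genome S98 array (18 in all). The values are log2 signals from robust multi-array averaging (RMA), so that a difference of 1 is a doubling.

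The 26S proteasome degrades proteins tagged with ubiquitin. Its 20S core is a barrel whose beta rings hold the proteolytic sites and whose alpha rings form the gate. The 19S particle binds ubiquitin chains, removes them in its lid and unfolds the substrate with the ATPases of its base. In yeast most subunit genes share a promoter element bound by Rpn4, an activator that the proteasome itself degrades within minutes, so that loss of proteasome activity raises Rpn4 and with it subunit synthesis. *RPN4* also responds to alkylation damage, oxidative stress and heat through Yap1, Hsf1, Pdr1 and Pdr3.

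Each strain was set against wild type to ask which genes respond to an excess of 1 repair enzyme or the loss of the other. Array medians over all probe sets of the file were between 1.63 and 1.72. *MAG1*, the name of *MAG* in the annotation, read between 1.48 and 7.17 on the pMAG arrays and between 0.89 and 1.41 on the others. On WT/pMAG replicate 2 it read 1.48, below that array's median of 1.66, so this array labelled pMAG did not show raised *MAG1*. On replicate 3 of Δapn1/pMAG and of Δapn1/pMAG/pAPN1 it read 1.82, little above those arrays' medians of 1.66 and 1.68, so *MAG1* was hardly raised there. *APN1* read between 7.26 and 7.96 on 5 of the 6 pAPN1 arrays, 4.57 on Δapn1/pMAG/pAPN1 replicate 1, and between 1.14 and 1.88 in wild type. A *LEU2* probe set, which read between 9.0 and 9.95 on the same 5 arrays, read 5.94 on that replicate, within the range of the arrays without pAPN1 (4.05 to 6.73). All arrays were kept in the group of their labels. Values without WT/pMAG replicate 2 and without Δapn1/pMAG/pAPN1 replicate 1 are given beside the results. *APN1* also read between 2.81 and 4.38 on the arrays labelled Δapn1 and Δapn1/pMAG, so its signal was not lower than wild type there. Whether its probes lie in the disrupted part is not given in the sources used here, so this probe set does not check the disruption. Averaged over 76 probe sets for non-coding RNA (nuclear, nucleolar and ribosomal), the log2 signal was higher on 7 arrays (2.10 to 2.55) than on the other 11 (1.69 to 1.86). These sets are called the high and the low array batch, although no label names a batch. Wild type replicates 2 and 3, WT/pMAG 1 and 3, Δapn1 2 and 3 and Δapn1/pMAG 1 were in the high batch, and both pAPN1 strains lay wholly in the low batch. The 5′ minus 3′ log2 difference of the *ACT1* probe sets, a measure of RNA integrity, was −7.78 on replicate 1 of Δapn1/pMAG. It was −1.82 to −0.86 on the other high batch arrays and −0.99 to −0.65 on the low batch arrays, so it moved with the batch.

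Against wild type the median shift of the proteasome genes was small in all 5 strains, and largest in Δapn1. The median log2 difference over the 41 probe sets was −0.08 in WT/pMAG, −0.11 in Δapn1, 0.06 in Δapn1/pMAG, 0.05 in Δapn1/pAPN1 and 0.03 in Δapn1/pMAG/pAPN1. Over all probe sets the medians were 0.01, 0.00, 0.02, 0.03 and 0.03 in the same order. The median of the 41 probe sets on single arrays varied within a strain with an SD of 0.163, which is larger than any of these differences. In Δapn1, 33 of the 41 lay below wild type, and in WT/pMAG 27 did, against 49.4% and 48.7% of all probe sets. Δapn1 and wild type arrays of the same replicate number vary together and lie in the same array batch. Between them the member median was −0.03, −0.14 and −0.17, with 24, 32 and 30 of 41 below 0. Without WT/pMAG replicate 2 the median in WT/pMAG was −0.18. *RPN4* was higher in the strains with pMAG. A pair of *PRE3* probe sets averaged below wild type in all 5 strains, furthest in WT/pMAG and Δapn1/pMAG.

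A probe set was called where it passed the thresholds of the study's methods, an unadjusted p under 0.05, here from limma's test, together with a difference of 1.5-fold or more. In WT/pMAG, 0 of the 41 were called higher, where 2.14% of all probe sets were, and 3 were called lower, 2 probe sets of *PRE3* and that of *RPN13*, where 3.86% were. In Δapn1 none was called in either direction, against 0.231% higher and 0.2% lower of all probe sets. In Δapn1/pMAG *RPT4* and *RPN4* were called higher (2 of 41, 2.03% of all), and 2 probe sets of *PRE3* lower (1.35% of all). In Δapn1/pAPN1 none was called, against 2.51% higher and 0.8% lower of all. In Δapn1/pMAG/pAPN1 *RPN4* was called higher (1 of 41, 1.81% of all) and *PUP2* lower (1 of 41, 1.58% of all). In the same strain order, all 3 arrays lay above those of wild type for 0, 0, 0, 2 and 2 of 41. Of all probe sets, 6.32%, 2.98%, 6.23%, 12% and 7.44% did. The members were *PRE4* and *RPN2*, then *PUP1* and *RPN7*. All 3 lay below for 3, 2, 2, 0 and 2, against 7.38%, 3.2%, 4.63%, 5.35% and 6.7%. These were probe sets of *PRE3*, with *SCL1* in WT/pMAG, *PRE1* in Δapn1 and *PUP2* in Δapn1/pMAG/pAPN1.

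After Benjamini-Hochberg adjustment over the 6504 probe sets, limma called 0 of the 41 in all 5 comparisons. Of all probe sets, 0.0923% passed in WT/pMAG, 0% in Δapn1, 0.108% in Δapn1/pMAG, 0.0154% in Δapn1/pAPN1 and 0.0154% in Δapn1/pMAG/pAPN1. At an unadjusted p under 0.05, limma gave 3, 0, 4, 0 and 2 of the 41 in that order, where 10.5%, 1.29%, 6.93%, 6.78% and 7.52% of all probe sets passed. The methods' ANOVA gave 3, 0, 3, 0 and 1, with 0 after adjustment in each. In limma's F test across the 6 strains, 0 of 41 passed after adjustment, where 0.4% of all did. The unadjusted p was under 0.05 for 2 of them in limma, against 9.56% of all, and for 0 in the ANOVA. The 95% confidence interval of the difference lay wholly within 1.5-fold for 15 to 19 of the 41 in each strain (36.6% to 46.3%). It did so for 48.5% to 58.4% of all probe sets. For the other members a 1.5-fold change could therefore not be set aside at 3 arrays per strain.

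**Figure D1:**
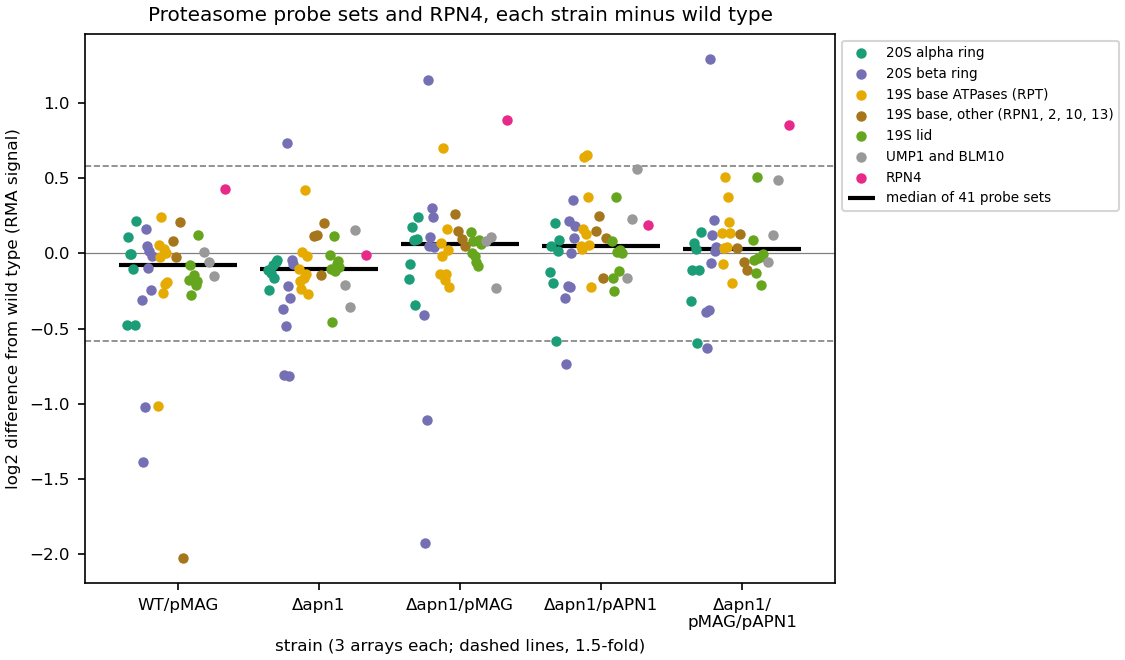
Log2 difference from wild type (y axis) of the 41 probe sets in each of the 5 other strains (x axis), each dot the difference of 2 means of 3 arrays, coloured by subunit group. Dashed lines mark 1.5-fold and black bars the medians, which lie between −0.11 and 0.06. *RPN4* stands above the upper dashed line in Δapn1/pMAG (0.89) and Δapn1/pMAG/pAPN1 (0.85).

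*RPN4*, the activator of the subunit genes, gave the clearest difference. Its log2 signals were 3.73, 3.90 and 3.38 in WT/pMAG, 3.75, 2.96 and 3.00 in Δapn1, 4.06, 3.88 and 4.46 in Δapn1/pMAG, 3.33, 3.36 and 3.62 in Δapn1/pAPN1, 3.86, 4.15 and 4.28 in Δapn1/pMAG/pAPN1, and 4.06, 3.10 and 2.57 in wild type. The arrays of Δapn1/pMAG and of Δapn1/pMAG/pAPN1 were all high, those of wild type ran from the lowest of the 18 values to 4.06, and wild type replicate 1 overlapped the high strains. In rising order the means ± SD of 3 arrays were 3.23 ± 0.45 in Δapn1, 3.24 ± 0.76 in wild type, 3.43 ± 0.16 in Δapn1/pAPN1, 3.67 ± 0.27 in WT/pMAG, 4.10 ± 0.21 in Δapn1/pMAG/pAPN1 and 4.14 ± 0.30 in Δapn1/pMAG. No neighbours in that order were apart by more than the larger of their SDs, except WT/pMAG and Δapn1/pMAG/pAPN1.

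**Figure D2:**
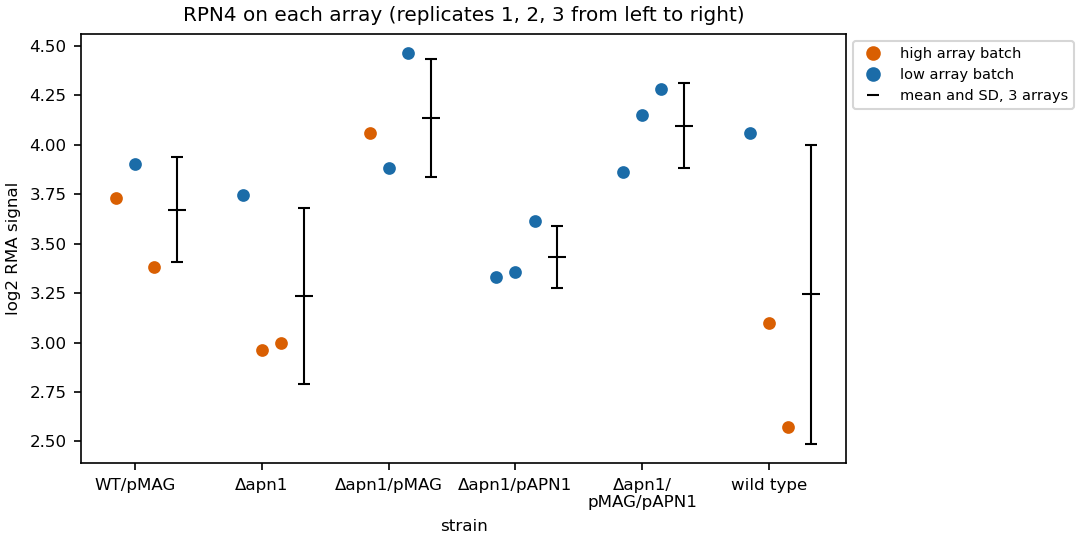
*RPN4* log2 RMA signal (y axis) on each of the 18 arrays by strain (x axis), with the mean and SD of 3 arrays beside the points and the colour showing the array batch. The 3 wild type arrays run from 2.57 to 4.06, with the low batch array on top.

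Against wild type, *RPN4* was 0.89 higher in Δapn1/pMAG (SE 0.31, limma adjusted p = 0.585) and 0.85 higher in Δapn1/pMAG/pAPN1 (SE 0.31, adjusted p = 0.527), or 1.86-fold and 1.81-fold, and both were called. In WT/pMAG, Δapn1 and Δapn1/pAPN1 the differences were 0.43, −0.01 and 0.19, all with 95% confidence intervals that include 0. These 5 comparisons share the wild type arrays, whose SD for *RPN4* was the largest of the 6 strains. Without wild type replicate 3, the lowest, neither call was made (0.56 in Δapn1/pMAG and 0.52 in Δapn1/pMAG/pAPN1). The calls were also lost without replicate 3 of Δapn1/pMAG (0.73) and without replicate 3 of Δapn1/pMAG/pAPN1 (0.76). These 2 arrays had the highest *RPN4* signal of their strains, and *MAG1* was hardly raised on them (1.82 on each). Without replicate 1 of Δapn1/pMAG/pAPN1 the difference in that strain was 0.97 and called, and without replicate 2 of WT/pMAG the difference in that strain was 0.31. Without wild type replicate 1, the highest, WT/pMAG (0.84) and Δapn1/pAPN1 (0.60) were called too.

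The pMAG effect can be read in 3 pairs of strains that share no array. *RPN4* was higher with pMAG in each, by 0.43 over wild type, by 0.90 over Δapn1 (adjusted p = 0.425) and by 0.66 over Δapn1/pAPN1 (adjusted p = 0.897, with a lower 95% bound of 0.0020). In the pair Δapn1/pMAG and Δapn1, and in the pair Δapn1/pMAG/pAPN1 and Δapn1/pAPN1, all 3 pMAG arrays lay above all 3 arrays without it. The share of all probe sets that did so was taken only against wild type, not in these pairs. The pair Δapn1/pMAG/pAPN1 and Δapn1/pAPN1 lies wholly in the low array batch. The mean of the 3 effects was 0.66 (SE 0.18, 95% confidence interval 0.28 to 1.05), or 1.58-fold (adjusted p = 0.0789). *RPN4* therefore passed the methods' thresholds and missed the adjusted threshold.

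For this mean pMAG effect *RPN4* was 1 of 41 called higher, where 1.89% of all probe sets were, and the 2 *PRE3* probe sets were called lower, where 1.58% were. After adjustment limma called 0 of 41, where 1.28% of all passed. The unadjusted p was under 0.05 for 3 of the 41 in limma, where it was for 15.3% of all, and for 4 in the ANOVA, which also called 0 after adjustment. Over 31 alternative fits the *RPN4* effect stayed between 0.55 and 0.83 and kept the methods' thresholds in 30. The exception was the fit without wild type replicate 3 (0.55, under 1.5-fold). Without WT/pMAG replicate 2 it was 0.63 (adjusted p = 0.116), and without Δapn1/pMAG/pAPN1 replicate 1 it was 0.70 (adjusted p = 0.106). The adjusted p ranged from 0.00824 without wild type replicate 1 to 0.164, and was under 0.05 in 3 fits, which were that one (effect 0.80), array weights (0.83, adjusted p = 0.0122) and the array batch as a block (0.60, adjusted p = 0.0386).

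The pMAG effect on *RPN4* was not shown to differ between backgrounds. It was 0.47 larger in Δapn1 than in wild type (95% confidence interval −0.46 to 1.40, adjusted p = 0.998), 0.24 smaller in Δapn1/pAPN1 than in Δapn1 (difference −0.24, −1.17 to 0.69, adjusted p = 0.998) and 0.23 larger in Δapn1/pAPN1 than in wild type (−0.70 to 1.17, adjusted p = 0.999). For each of these 3 differences limma called 0 of 41 after adjustment and 0% of all probe sets, with an unadjusted p under 0.05 for 1, 0 and 0 of the 41 (*PRE7* in the first, adjusted p = 0.998), where 3.2%, 3.12% and 3.92% of all passed. In the first, the pMAG effect in Δapn1 minus that in wild type, 38 of the 41 lay above 0, with a median of 0.25 against 0.03 over all probe sets, of which 46.2% lay below 0. In the second 11 and in the third 26 lay above 0. The members vary together between arrays, so these counts are not 41 independent values. Nor is the array batch balanced in the first. Within the low batch the member median was −0.02 for Δapn1/pMAG minus Δapn1 (2 arrays against 1) and −0.02 for WT/pMAG minus wild type (1 array each). Within the high batch these medians were 0.16 (1 array against 2) and −0.13 (2 arrays each). The lone Δapn1/pMAG array there is replicate 1, which had the low *ACT1* 5′ signal. The mean pAPN1 effect on *RPN4* was 0.08 (95% confidence interval −0.39 to 0.55, adjusted p = 0.959).

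**Figure D3:**
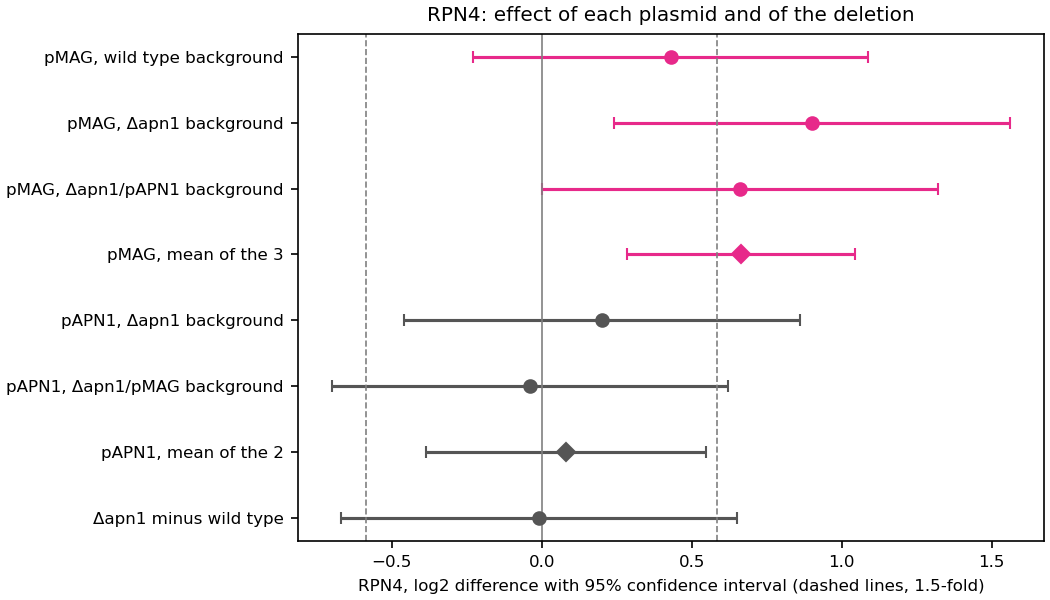
*RPN4* log2 differences (x axis) with 95% confidence intervals from limma for pMAG in 3 backgrounds, pAPN1 in 2 backgrounds, their means (diamonds) and Δapn1 minus wild type. The mean pMAG effect of 0.66 has an interval of 0.28 to 1.05, and the mean pAPN1 effect of 0.08 has an interval that spans 0.

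The array batch moved with *RPN4*. In wild type the low batch array was 1.23 above the mean of the 2 high batch arrays, and in Δapn1, WT/pMAG and Δapn1/pMAG the same difference was 0.77, 0.35 and 0.11. Within the high batch *RPN4* was 0.72 higher in WT/pMAG than in wild type (2 arrays each, adjusted p = 0.261), and within the low batch it was −0.16 (1 array each). Δapn1/pMAG was above Δapn1 within both batches, by 1.08 in the high (1 array against 2) and 0.43 in the low (2 against 1). The only Δapn1/pMAG array in the high batch is replicate 1, which had the low *ACT1* 5′ signal. Δapn1/pMAG differed from wild type by 1.23 within the high batch (1 array against 2) and by 0.11 within the low (2 against 1). Δapn1/pAPN1 differed from it by −0.63 within the low batch (3 against 1). Δapn1/pMAG/pAPN1 differed from wild type by 0.03 within the low batch (3 arrays against 1) and by 0.44 with the batch as a block (adjusted p = 0.912), so this call was lost.

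Within each strain that carries pMAG, the *MAG1* signal was set beside that of *RPN4*. *MAG1* read 6.14, 1.48 and 6.91 in WT/pMAG, 7.17, 2.88 and 1.82 in Δapn1/pMAG, and 3.80, 2.83 and 1.82 in Δapn1/pMAG/pAPN1. In each of these strains the array with the highest *RPN4* signal was the one with the lowest *MAG1* signal. In WT/pMAG and Δapn1/pMAG every high batch array read higher for *MAG1* than every low batch array. There *MAG1* and the array batch, which also moved with *RPN4*, cannot be told apart. Δapn1/pMAG/pAPN1 lies wholly in the low batch. With 3 arrays per strain the relation of *RPN4* to *MAG1* was not tested.

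The alpha ring genes, which form the gate of the core (*SCL1*, *PRE8*, *PRE9*, *PRE6*, *PUP2*, *PRE5* and *PRE10*), changed little. Their medians against wild type ran from −0.11 in Δapn1 and Δapn1/pMAG/pAPN1 to 0.09 in Δapn1/pMAG, and all 7 lay below wild type in Δapn1 (−0.24 to −0.04) with none called. *PUP2*, the alpha5 subunit, read 5.02, 4.34 and 5.09 in WT/pMAG, 4.80, 4.57 and 4.92 in Δapn1, 4.73, 4.20 and 4.80 in Δapn1/pMAG, 4.77, 4.03 and 4.21 in Δapn1/pAPN1, 4.64, 4.59 and 3.75 in Δapn1/pMAG/pAPN1, and 4.65, 5.20 and 4.92 in wild type. The 3 arrays of Δapn1/pMAG/pAPN1 lay below those of wild type, as 6.7% of all probe sets did. The margin was 0.01 for the nearest pair, and replicate 3 was the lowest of all 18. The difference was −0.59 (SE 0.28, adjusted p = 0.656), with an unadjusted p just under the threshold. It was not called with the replicate number as a block (−0.59), with the array batch as a block (−0.38), without that replicate 3 (−0.30) or without wild type replicate 2 (−0.46) or 3 (−0.60).

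*PRE9*, the alpha3 subunit and the only core subunit that yeast can lose, was next after *RPN4* and *PRE3* by p in the mean pMAG effect. It read 3.85, 4.05 and 3.61 in WT/pMAG, 3.69, 3.72 and 3.72 in Δapn1, 3.99, 4.10 and 3.95 in Δapn1/pMAG, 3.70, 3.37 and 3.86 in Δapn1/pAPN1, 3.97, 4.12 and 3.65 in Δapn1/pMAG/pAPN1, and 4.08, 3.80 and 3.64 in wild type. Δapn1/pMAG and Δapn1 did not overlap, and the other pairs did. For this pair the share of all probe sets without overlap was not taken. The mean effect was 0.19 (95% confidence interval −0.01 to 0.39, adjusted p = 0.347).

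The beta ring holds the active sites, with *PRE3* (beta1), *PUP1* (beta2) and *PRE2* (beta5) as the catalytic subunits and *PUP3*, *PRE1*, *PRE7* and *PRE4* as the others. The median of its 9 probe sets ran from −0.30 in Δapn1 to 0.05 in Δapn1/pMAG. In all 5 strains at least 1 of its probe sets differed from wild type by 1.5-fold or more (2, 3, 3, 1 and 2 of 9), and only those of *PRE3* were called.

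*PRE3*, whose beta1 site cuts after acidic residues, gave different results by probe set. Its probe set of the f type (a family of like sequences) read 2.76, 2.10 and 3.04 in WT/pMAG, 3.94, 2.64 and 3.06 in Δapn1, 0.86, 2.96 and 2.47 in Δapn1/pMAG, 4.21, 3.20 and 2.45 in Δapn1/pAPN1, 3.95, 3.17 and 3.06 in Δapn1/pMAG/pAPN1, and 4.61, 3.98 and 3.48 in wild type. All arrays of WT/pMAG and of Δapn1/pMAG lay below all arrays of wild type, as 7.38% and 4.63% of all probe sets did. The differences were −1.39 (SE 0.54, adjusted p = 0.382) and −1.92 (SE 0.54, adjusted p = 0.327). The difference in WT/pMAG was not called without wild type replicate 1 (−1.09) or without WT/pMAG replicate 2 (−1.12). The wild type mean of 4.022 was also above those of Δapn1 (3.215), Δapn1/pAPN1 (3.286) and Δapn1/pMAG/pAPN1 (3.395), where this probe set was not called.

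The i-type probe set of *PRE3* read 2.07, 1.58 and 1.78 in WT/pMAG, 2.66, 1.98 and 2.40 in Δapn1, 0.98, 2.03 and 2.16 in Δapn1/pMAG, 3.70, 2.47 and 1.69 in Δapn1/pAPN1, 2.72, 2.30 and 2.34 in Δapn1/pMAG/pAPN1, and 3.11, 2.49 and 2.89 in wild type. The arrays of WT/pMAG and of Δapn1/pMAG again lay wholly below those of wild type, with differences of −1.02 (adjusted p = 0.387) and −1.11 (adjusted p = 0.605). Without wild type replicate 1 neither was called (−0.88 and −0.97). Its largest spread was in Δapn1/pAPN1, where the SD was 1.01.

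The third, plain probe set of *PRE3* read 6.71, 6.02 and 6.26 in WT/pMAG, 6.30, 6.26 and 6.26 in Δapn1, 6.63, 5.86 and 6.20 in Δapn1/pMAG, 6.58, 6.27 and 6.20 in Δapn1/pAPN1, 6.43, 6.0 and 6.33 in Δapn1/pMAG/pAPN1, and 6.66, 6.81 and 6.46 in wild type. All arrays of Δapn1 and of Δapn1/pMAG/pAPN1 lay below those of wild type, as 3.2% and 6.7% of all probe sets did. The differences of −0.37 and −0.39 were not called. WT/pMAG, Δapn1/pMAG and Δapn1/pAPN1 overlapped wild type, and the WT/pMAG and Δapn1/pMAG differences of −0.31 (adjusted p = 0.66) and −0.41 (adjusted p = 0.725) were not called. All 3 probe sets averaged below wild type in all 5 strains. How the 3 divide the transcript is not given in the sources used here, and probe sets of the f and i types can read similar sequences, so the level of *PRE3* is uncertain.

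**Figure D4:**
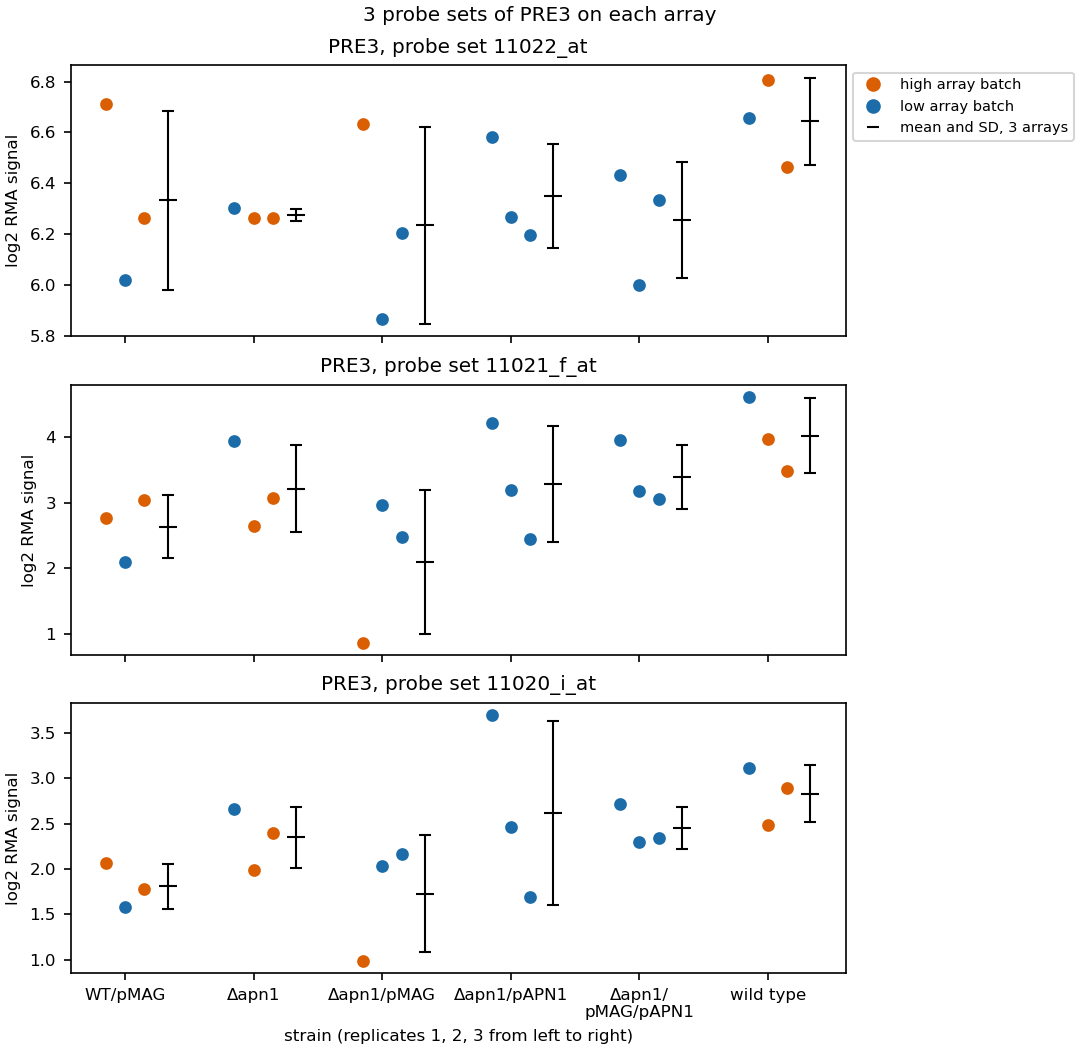
Log2 RMA signal (y axis, a scale of its own in each panel) of the 3 *PRE3* probe sets on each array by strain (x axis), with the mean and SD of 3 arrays and the array batch as colour. In the lower panels Δapn1/pMAG replicate 1 is the lowest of all 18 arrays (0.86 and 0.98).

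The lowest array for both called *PRE3* probe sets was Δapn1/pMAG replicate 1, the array with the low *ACT1* 5′ signal. Without it the difference of the f-type probe set in Δapn1/pMAG was −1.30 and still called, and that of the i-type was −0.74 and not called. The mean pMAG effects were −0.80 (95% confidence interval −1.47 to −0.13, adjusted p = 0.226) and −0.60 (−1.10 to −0.10, adjusted p = 0.224). They were called in 26 and 20 of 30 alternative fits, and for the f type the call was lost without Δapn1 replicate 1 (−0.68), without Δapn1/pAPN1 replicate 1 (−0.64), with array weights (−0.52) and with the mean of the 3 probe sets (−0.52). Within the pAPN1 pair the pMAG effect on the f-type probe set was 0.11 (95% confidence interval −1.05 to 1.27). The pMAG effect there minus that in wild type was 1.5 (adjusted p = 0.999).

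The other beta subunits were marked by single low arrays. *PUP1* read between 5.24 and 6.54 on 15 arrays but 3.26 on WT/pMAG replicate 1, 3.31 on Δapn1/pAPN1 replicate 1 and 3.25 on wild type replicate 2. Its differences of 1.15 in Δapn1/pMAG (adjusted p = 0.853) and 1.30 in Δapn1/pMAG/pAPN1 (adjusted p = 0.733) were not called. *PRE1* read 3.48 on Δapn1 replicate 1, against 5.0 and 4.95 on the other Δapn1 arrays. *PUP3* was among the steadiest members, with a residual SD of 0.152 and 95% confidence intervals within 1.5-fold of wild type in all 5 strains.

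Among the ATPases that unfold substrates (*RPT1* to *RPT6*, 9 probe sets), medians ran from −0.14 in Δapn1 to 0.14 in Δapn1/pMAG/pAPN1. *RPT4* read 2.16, 3.02 and 2.14 in WT/pMAG, 2.73, 2.07 and 1.82 in Δapn1, 2.38, 2.99 and 3.31 in Δapn1/pMAG, 2.82, 2.60 and 3.09 in Δapn1/pAPN1, 2.51, 2.69 and 2.91 in Δapn1/pMAG/pAPN1, and 2.64, 1.87 and 2.07 in wild type. Within the 4 strains that span both batches, the low batch arrays were the high ones. The difference of 0.70 in Δapn1/pMAG (SE 0.30, adjusted p = 0.707) was not called with the replicate number as a block, in the methods' ANOVA or, for its size, with the array batch as a block (0.44). It was also lost without replicate 2 (0.65) or 3 (0.49) of Δapn1/pMAG and without wild type replicate 2 (0.54) or 3 (0.64).

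*RPT5* has 4 probe sets, which also differed, and none was called in any strain. Its g-type probe set, with the third smallest p of the members in the F test (unadjusted p above 0.05), read 1.04, 1.28 and 1.03 in WT/pMAG, 1.27, 1.18 and 1.11 in Δapn1, 1.27, 1.91 and 1.29 in Δapn1/pMAG, 1.79, 1.82 and 1.5 in Δapn1/pAPN1, 1.58, 1.42 and 1.60 in Δapn1/pMAG/pAPN1, and 1.48, 0.88 and 1.62 in wild type. Its mean lay below the lowest array median, as did those of 1 other *RPT5* probe set and of *RPT2*, so that these 3 were dim. *RPT1* read 2.88 on WT/pMAG replicate 1, against 5.44 and 5.37 on the other arrays of that strain, and its difference of −1.01 was not called (adjusted p = 0.482).

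The other base subunits are the scaffolds *RPN1* and *RPN2* and the ubiquitin receptors *RPN10* and *RPN13*. *RPN13* read 0.56, 5.23 and 5.11 in WT/pMAG, 6.0, 5.82 and 5.78 in Δapn1, 5.77, 5.43 and 5.94 in Δapn1/pMAG, 6.12, 5.38 and 5.80 in Δapn1/pAPN1, 5.68, 5.28 and 5.69 in Δapn1/pMAG/pAPN1, and 5.90, 5.15 and 5.94 in wild type. A lone array, WT/pMAG replicate 1, was low, and the rest overlapped. The call in WT/pMAG (−2.03, SE 0.83, adjusted p = 0.397) rested on it, and without it the difference was −0.49 and not called. Nor was it called without wild type replicate 1 (−1.91) or 3 (−1.89). The other 3 genes of this set differed from wild type by less than 1.5-fold in every strain.

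The 8 lid subunits taken here were *RPN3*, *RPN5*, *RPN6*, *RPN7*, *RPN8*, *RPN9*, *RPN11* and *RPN12*, of which *RPN11* encodes the deubiquitinase. They gave no call in any of the 5 strains, and none differed from wild type by 1.5-fold. Their medians ran from −0.17 in WT/pMAG to 0.03 in Δapn1/pMAG, and 7 of 8 lay below wild type in both WT/pMAG and Δapn1. The widest values were −0.45 in Δapn1 and 0.51 in Δapn1/pMAG/pAPN1 (*RPN7*, adjusted p = 0.744). None of the 3 probe sets of *UMP1*, which helps the core mature, and of *BLM10*, which caps the core in place of the 19S particle, was called in any strain against wild type (−0.35 to 0.56).

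Against Δapn1 rather than wild type a few more members passed the methods' thresholds, and these were named after their values were seen. In Δapn1/pMAG *PRE1* (0.93, adjusted p = 0.57), *RPT4* (0.69, adjusted p = 0.588) and *RPN4* were called higher than in Δapn1 (3 of 41, 2.29% of all) and none lower (1.52% of all). The *PRE1* difference includes the low Δapn1 replicate 1. In Δapn1/pMAG/pAPN1 against Δapn1/pAPN1, *RPN4* alone was called higher (1.23% of all) and none lower (1.2% of all).

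With the *APN1* plasmid few members were called. In Δapn1/pAPN1 against Δapn1, 32 of 41 lay above 0 (median 0.13, against 0.03 over all probe sets), the 9 ATPase probe sets among them (median 0.23), and in Δapn1/pMAG/pAPN1 against Δapn1/pMAG 17 of 41 did (median −0.05). In Δapn1/pAPN1 *PRE2* (0.66, adjusted p = 0.969) and 1 of the 2 probe sets of *BLM10* (0.59, adjusted p = 0.969) were called higher than in Δapn1 (2 of 41, 1.17% of all) and none lower (0.431% of all). In Δapn1/pMAG/pAPN1 the f-type probe set of *PRE3* was 1.30 above Δapn1/pMAG (adjusted p = 0.996, 1 of 41 higher, 0.892% of all) and none was called lower (0.784% of all). For the mean pAPN1 effect 0 of 41 were called in either direction, against 0.523% higher and 0.323% lower of all probe sets. After adjustment it was 0 of 41 in limma, where 0.0615% of all passed, and 0 in the ANOVA. The unadjusted p was under 0.05 for 1 of the 41 in each, and in limma for 5.21% of all probe sets. Both pAPN1 strains lie in the low batch and 2 of the 3 Δapn1 arrays in the high one.

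The members varied together between arrays of a strain. After the strain means were taken out, the mean correlation between probe sets of different members was 0.22 over 18 arrays (810 pairs, 72.2% above 0), where it was 0.02 over all probe sets tested. These correlations describe arrays that share hybridization, RNA quality and batch, and carry no test. The correlation with the median of the other members was above 0.5 for 23 of 41 probe sets, and was highest for *PRE10* (0.89), 1 *RPT5* probe set (0.86), *RPN11* (0.84) and *PRE2* (0.84). It was above 0.5 for 7 of 8 lid probe sets, 5 of 7 of the alpha ring, 5 of 9 of the ATPases and 4 of 9 of the beta ring. 1 *BLM10* probe set (−0.34), *UMP1* (−0.09), *PUP2* (−0.16), the plain *PRE3* probe set (−0.19), 1 *RPT5* probe set (−0.49) and *RPN13* (−0.03) were the ones below 0.

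*RPN4* belonged to the members that varied together. Its correlation with the median of the others was 0.68, and 35 of the 40 other probe sets correlated with it above 0. By this measure over the 18 arrays *PRE2* (0.75), *RPT4* (0.72), *PRE7* (0.67) and *PRE6* (0.66) were most like it.

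**Figure D5:**
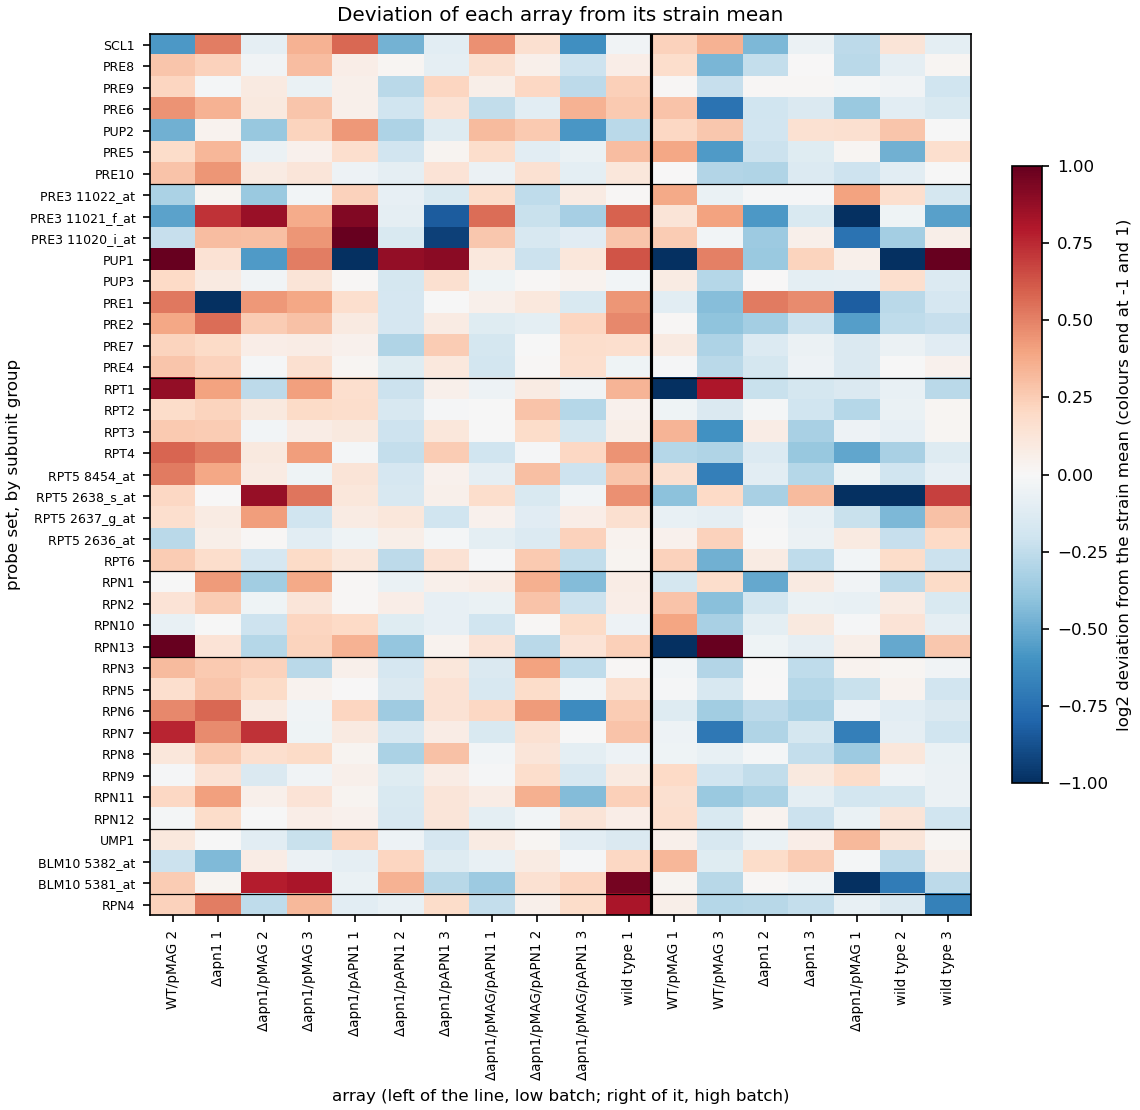
Log2 deviation of each array (x axis, low batch left of the line and high batch right of it) from its strain mean for the 41 probe sets (y axis, by subunit group). Colours end at −1 and 1. Low batch arrays of the 4 strains that span both batches are mostly red (above their strain mean), and single dark blue cells mark arrays such as WT/pMAG replicate 1 for *RPN13*, *RPT1* and *PUP1*.

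The array batch moved with this shared variation. In the 4 strains that span both batches the median member was higher in the low batch, by 0.31 in WT/pMAG (30 of 41 above 0), 0.35 in Δapn1 (36 of 41), 0.13 in Δapn1/pMAG (32 of 41) and 0.24 in wild type (34 of 41), while the medians of all probe sets were 0.03 to 0.06. The *ACT1* 5′ minus 3′ difference was −0.99 to −0.65 on low batch arrays and −7.78 to −0.86 on high batch arrays. Neither the labels nor the methods name what divides these arrays, and its part in the shared variation was not tested beyond these values.

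Lone arrays set several of the larger differences. In 16 of the 246 triplets of a member probe set and a strain (6.5%) 1 array lay at least 1 log2 unit from the nearer of the other 2, against 4.61% of all triplets. In 13 of the 16 it was the low one. The widest gaps were for *RPN13* (4.55), *PUP1* in Δapn1/pAPN1 (2.67), *RPT1* (2.48) and the other *BLM10* probe set in Δapn1/pMAG (2.39).

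Calls among genes that work with the proteasome are given beside the share of all probe sets called in that strain and direction. Of 23 probe sets for 16 assembly chaperones and associated factors, *PBA1*, a chaperone of the alpha ring, was called higher in Δapn1/pMAG (0.89, adjusted p = 0.605). This was 1 of 23, against 2.03% of all. In Δapn1/pAPN1 *PBA1* (0.98, adjusted p = 0.577) and its partner *ADD66* (1.03, adjusted p = 0.604) were called higher (2 of 23, 2.51% of all). *FUB1* was called lower there (−0.83, adjusted p = 0.717, 1 of 23, 0.8% of all), with 0.86 on replicate 1 and 2.84 and 2.41 on the others. In Δapn1/pMAG/pAPN1 *TMA17* was called lower (−0.80, adjusted p = 0.609, 1 of 23, 1.58% of all). None of the 23 was called in WT/pMAG (2.14% higher and 3.86% lower of all) or Δapn1 (0.231% and 0.2%). The list's medians ran from −0.12 to 0.00.

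Of 15 genes for ubiquitin and its conjugation, *UBA1*, the ubiquitin activating enzyme, was called lower in WT/pMAG (−1.18, adjusted p = 0.386, 1 of 15, 3.86% of all). It read 3.14 on replicate 1 and 5.49 on each of the other arrays. *RSP5*, a ubiquitin ligase, was called lower in Δapn1/pMAG (−0.80, adjusted p = 0.665, 1 of 15, 1.35% of all), with 2.58 on replicate 1 and 4.33 and 4.15 on the others. *UBC4*, a conjugating enzyme, was called lower in Δapn1/pAPN1 (−2.34, adjusted p = 0.723, 1 of 15, 0.8% of all), with 0.80 on replicate 1 and 6.60 and 6.59 on the others. The list's medians ran from 0.00 to 0.07.

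The *CDC48* complex, which extracts ubiquitinated proteins, and the shuttle receptors gave 0 calls among 9 genes in any strain against wild type. Of all probe sets, 0.2% to 3.86% were called, by strain and direction. All 9 lay above wild type in Δapn1/pMAG, with a median of 0.22, where 45.9% of all probe sets lay below. In WT/pMAG, Δapn1, Δapn1/pAPN1 and Δapn1/pMAG/pAPN1, 7, 4, 7 and 8 lay above, where 48.7%, 49.4%, 44.4% and 44.4% of all lay below. In the mean pMAG effect the shuttle receptor *DSK2* was called higher (0.74, SE 0.25, adjusted p = 0.17, 1 of 9, 1.89% of all). Its SD was 0.81 in WT/pMAG and 1.01 in Δapn1/pMAG. In that effect 1 of the 15 ubiquitin genes was also called higher, and 1 lower (1.58% of all), and 0 of the 23 probe sets of the assembly list were called. The 4 regulators that act on the *RPN4* promoter, *YAP1*, *HSF1*, *PDR1* and *PDR3*, gave 0 calls in all 5 strains, with differences between −0.34 and 0.40. As above, 0.2% to 3.86% of all were called by strain and direction. *YAP1* was dim, with a mean below the lowest array median. The mean pMAG effects of the 4 were 0.08, −0.05, 0.20 and −0.05, each with a 95% confidence interval that included 0.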

How the data were processed

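The deposited table holds, per the labels and the methods, log2 signals that the authors made from the scanned arrays with RMA, which corrects background, quantile-normalizes and summarizes probes. Its version is not given in the sources used here, and the scans were not used. Of 9335 probe sets, 60 controls, 328 with several gene names in the platform annotation and 2443 with none were left out. Values ran from 0.0711 to 13.02 and correlations between arrays from 0.913 to 0.992. The number of arrays limits the precision.

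The 6504 remaining probe sets were fitted in R 4.3.3 with limma 3.58.1 (lmFit and eBayes, 1 mean per strain, all 18 arrays, 12 residual and 2.89 prior degrees of freedom, median residual SD 0.241). p was two-sided, and Benjamini-Hochberg adjustment ran over all of them in each comparison. The methods' ANOVA uses each probe set's own variance. The fit was tested on simulated data. The members, the lists and the array batch, which was set at the widest gap in the RNA signal, were chosen with earlier results of these data known. The genes named are *RPN4*, members past the methods' thresholds in a strain, up to 4 members with the smallest p in the F test and in the mean pMAG effect, and up to 3 called genes per list. The lists were assembly chaperones, ubiquitin genes, the *CDC48* complex and the *RPN4* regulators. The description label of Δapn1 replicates 2 and 3 names a different gene number from the source label, which was followed. Between Δapn1 and wild type arrays of the same replicate number, deviations from the strain means correlated at 0.372, 0.331 and 0.369. In these 2 strains each replicate number also lies in the same array batch, so pairing and batch cannot be told apart. No label names a pairing. For the other strains the correlations with wild type ran from −0.33 to 0.21. Alternatives covered the test, samples, normalization, filters, blocks, weights, probe set choice and single replicates.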

Additional observations from a re-analysis of the deposited data

How the results depend on the processing

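The count of the 41 probe sets past the methods' thresholds and their median were recomputed under each alternative fixed with the design. Among them were the arrays of either batch alone and a fit without 2 doubted arrays, replicate 1 of Δapn1/pMAG (low *ACT1* 5′ signal) and replicate 1 of Δapn1/pMAG/pAPN1 (low *APN1*). The search for the Rpn4 element in promoters was not run. No single difference that passed the methods' thresholds changed sign. The array batch as a block also changed the number called among all probe sets. It went from 390 to 420 in WT/pMAG, 28 to 34 in Δapn1 and 220 to 288 in Δapn1/pMAG. In Δapn1/pAPN1 it went from 215 to 165 and in Δapn1/pMAG/pAPN1 from 221 to 154. Except for the replicate block, the numbers over all probe sets under the other alternatives are not given here. In Δapn1/pMAG/pAPN1 the count of 2 was 1 in the ANOVA, with only the 2 groups, with the replicate block, after quantile normalization again, without the dimmest 25% of probe sets and with trend and robust variances. It was 0 with the array batch as a block or by adjusted p, and the median with that block was −0.15. In Δapn1/pMAG the count of 4 was 2 with only the 2 groups or 1 probe set per gene, and 0 by adjusted p. In Δapn1/pAPN1 the count of 0 was 2 with only the 2 groups or the array batch as a block, 3 with array weights, and 1 with trend and robust variances or without the 2 doubted arrays. Its median was −0.16 with the batch as a block and −0.12 in the low batch alone, against 0.05. In WT/pMAG the count of 3 was 1 with 1 probe set per gene and 0 by adjusted p. In Δapn1 the count of 0 was 3 in the high batch alone and 1 without the 2 doubted arrays. The count of 3 for the mean pMAG effect was 1 with array weights, 1 probe set per gene or the mean of a gene's probe sets, and 0 by adjusted p. The cause was not tested, except that fewer probe sets of *PRE3* enter with 1 value per gene.

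Leaving out 1 replicate gave counts of 1 to 4 in WT/pMAG, 0 to 1 in Δapn1, 2 to 4 in Δapn1/pMAG, 0 to 3 in Δapn1/pAPN1, 0 to 3 in Δapn1/pMAG/pAPN1, 1 to 4 for the mean pMAG effect and 0 to 2 for the mean pAPN1 effect. With the replicate block the calls of *RPT4* in Δapn1/pMAG (3 called of 4) and *PUP2* in Δapn1/pMAG/pAPN1 (1 of 2) were lost. Over all probe sets the number called went from 220 to 208 in the first strain and from 221 to 210 in the second. This block changed no other call of a member, and for Δapn1 the member count was 0 with and without it.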
